A study of Mus musculus with 6 samples.

Results

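The transcripts of 8 maternal-effect genes of oocyte chromatin and of the start of the embryo, H1foo, Npm2, Zar1, Zar1l, Smarca4, Trim28, Ctcf and Hsf1, were followed in mouse germinal vesicle (GV) oocytes. They were taken by symbol from a list of 17577 genes, and all 8 were found. The rule names genes and uses no measured value, but the list was drawn up with earlier results of these data known. The oocytes came from ovaries of 12-week-old mice of the strain C57BL/6 J, 3 libraries from Bnc1tr/tr mice, homozygous for a frameshift allele that truncates the transcription factor basonuclin 1 in every tissue, and 3 from wild-type (WT) mice. By the study's methods the females were primed with gonadotropin, littermates were compared and each cDNA was made from a single oocyte by a modified Smart-seq2 procedure, which copies polyadenylated RNA. Values are FPKM, in which the fragments of a gene are divided by the length of its transcript and by the mapped fragments of its library, so that levels of different genes are given per length.

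A maternal-effect gene is one whose product the mother stores in the oocyte and the embryo needs before its own genome is read. A full-grown GV oocyte has nearly stopped transcription, so its mRNA pool is the store itself. The 8 genes act at different steps. H1foo is the linker histone of the oocyte and Npm2 a nucleoplasmin that carries histones. ZAR1 and ZAR1L are related zinc-finger proteins that bind stored mRNA. SMARCA4, or BRG1, is an ATPase of the SWI/SNF chromatin remodellers, TRIM28, or KAP1, is the corepressor that KRAB zinc-finger proteins bring to DNA, CTCF folds chromatin together with cohesin, and HSF1 switches on heat shock genes.

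Of the 8 genes 1 was called changed, where 31.8% of all tested genes were called and 7.68% were called lower. The lack of a call does not show that a gene was unchanged. Zar1l was lower in Bnc1tr/tr oocytes, at 56.9% of its WT mean, and no Bnc1tr/tr library reached a WT library. Ctcf was above WT in every Bnc1tr/tr library, with an adjusted p just outside the threshold. Such separation was common: of all tested genes, 14.1% were lower without overlap of the groups and 32.7% higher. H1foo, the most abundant of the 8, had nearly equal means of 7399 FPKM in Bnc1tr/tr and 7401 FPKM in WT.

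Zar1l was called lower, the means of H1foo were nearly equal, and the groups of Ctcf did not overlap, in the other direction. The sequences before the annotated starts of these genes are shown 5′ to 3′ as RefSeq gives them for GRCm38.p6. Each covers the part of a 250-base window before an annotated start that lies outside the whole RefSeq span of its gene. Zar1l is on the minus strand (chr5:150518195-150518409), H1foo on the plus strand (chr6:115944681-115944930) and Ctcf on the plus strand (chr8:105636288-105636473). Capitals mark matches on either strand to the following motifs. The E-box was searched as CANNTG, where N is any base. The element bound by the oocyte factor NOBOX was searched as TAATTG and, separately, by its other form TAATTA. The TATA box was searched with the letters TATAAA. The box named CCAAT was searched by these letters, and the GC box as GGGCGG. An E-box could overlap another motif, and none did in the sequences printed.
Zar1l: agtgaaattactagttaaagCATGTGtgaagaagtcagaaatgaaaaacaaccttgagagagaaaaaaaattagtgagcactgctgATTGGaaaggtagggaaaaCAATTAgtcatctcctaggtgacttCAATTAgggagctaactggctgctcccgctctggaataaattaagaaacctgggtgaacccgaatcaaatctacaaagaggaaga
H1foo: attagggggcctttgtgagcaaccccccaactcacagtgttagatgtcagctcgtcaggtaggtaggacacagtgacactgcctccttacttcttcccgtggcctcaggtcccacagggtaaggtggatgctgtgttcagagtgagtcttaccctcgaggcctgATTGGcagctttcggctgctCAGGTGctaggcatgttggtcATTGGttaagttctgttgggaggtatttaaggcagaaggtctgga
Ctcf: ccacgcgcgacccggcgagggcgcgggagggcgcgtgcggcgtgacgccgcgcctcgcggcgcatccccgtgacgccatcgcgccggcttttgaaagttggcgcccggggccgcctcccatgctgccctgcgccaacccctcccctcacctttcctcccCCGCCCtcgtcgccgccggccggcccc

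The Zar1l window held 2 copies of CAATTA, the reverse complement of TAATTG, starting 145 and 120 bases before the annotated start. It also held 1 E-box and 1 CCAAT box. Of the 32851 windows of 250 bases in the RefSeq table, 7.17% held TAATTG on either strand, 66.2% an E-box and 33.8% a CCAAT box. H1foo had 1 E-box and 2 CCAAT boxes, and Ctcf had 1 GC box, a motif of 32.7% of the windows. None of the 6 windows matched held TAATTA or TATAAA, which 4.84% and 12.4% of all windows held. These are matches of letters and say nothing of binding. GC content over the full windows was 42.8% for Zar1l, 53.2% for H1foo, 55.6% for Zar1, 62.0% for Trim28, 70.8% for Smarca4 and 77.6% for Ctcf, against a median of 52.4% over all windows. Thus the genes known mainly from oocytes had the lower GC content and those used in most cells the higher. The Zar1 window lay inside the span of a longer annotated transcript and is not printed. Windows for 6 of the 8 genes were matched, and Npm2 and Hsf1 had none.

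Facts of the whole series bear on these values as follows. The RNA of Bnc1 itself, which carries the frameshift, was 9.04, 6.51 and 5.83 FPKM in the Bnc1tr/tr libraries and 13.2, 12.5 and 16.2 FPKM in WT (log2 fold change -0.89, limma, adjusted p = 0.0090), which does not show the deletion itself. Of 16 oocyte markers, 15 had a mean of at least 1 FPKM, Npm2 and Zar1 among them, and Sohlh1 was at 0 to 0.22 FPKM. Bnc1tr/tr libraries had 15258 to 15736 genes above 0 and WT libraries 13896 to 14576. Summed markers of theca, stroma and luteal cells were 11.8 to 15.8 FPKM in Bnc1tr/tr and 2.80 to 4.04 FPKM in WT, those of epithelium 10.3 to 33.7 and 0.95 to 3.20 FPKM, and those of endothelium 5.38 to 8.10 and 10.1 to 11.7 FPKM, with no overlap. Most of the endothelial sum was Pecam1, while Kdr was higher in Bnc1tr/tr (0.53 to 1.54 against 0.07 to 0.12 FPKM). Summed granulosa and cumulus markers were 45.8 to 63.4 and 33.1 to 47.1 FPKM, with 2 called higher and 1 lower. Summed immune markers were 61.0 to 125.8 and 66.2 to 97.1 FPKM and erythrocyte markers 0 to 10.1 and 0 FPKM. These 3 sums overlapped. Most of the immune sum was C1qb, at 53.09 to 70.65 FPKM in Bnc1tr/tr and 64.81 to 95.27 FPKM in WT. Ptprc, Cd52, Adgre1, Cd3e, Lyz2 and C1qa were 0 FPKM in every WT library and above 0 in some or all Bnc1tr/tr libraries. Lyz2 reached 47.97 FPKM in Bnc1tr/tr replicate 2. The part of these marker genes in the results was not tested. Over the 10560 genes tested, 2547 were higher and 811 lower in Bnc1tr/tr, and the median log2 fold change was 0.15. After median-ratio scaling of the libraries this median was -0.02 with 2034 higher and 1395 lower, after upper-quartile scaling 2145 were higher and 1231 lower, and after quantile normalization the median was -0.10 with 1637 higher and 1877 lower. An FPKM is a share of all fragments in a library, and a smaller share and less RNA per oocyte cannot be told apart.

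**Figure D1:**
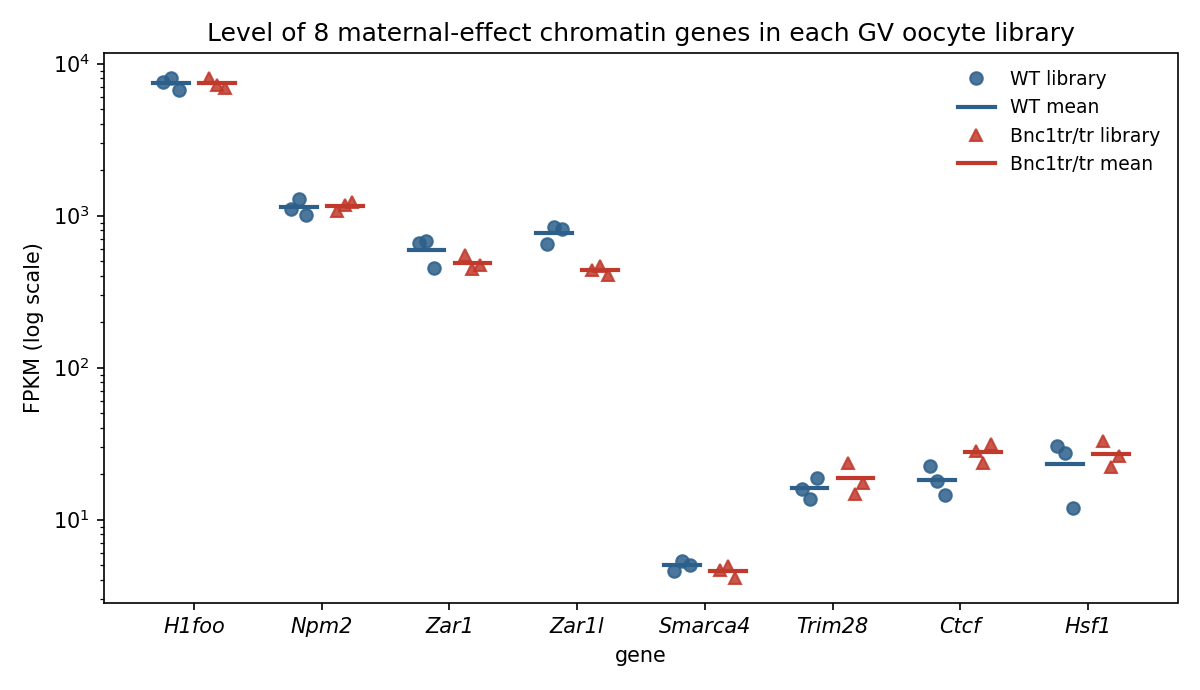
FPKM on a log scale for the 8 genes in each library, with blue circles for the 3 WT and red triangles for the 3 Bnc1tr/tr libraries and bars for group means. The symbols of the groups are apart for Zar1l and, in the other direction, for Ctcf, and H1foo lies on top in both groups with means of 7399 and 7401 FPKM.

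From H1foo at 7401 ± 667 FPKM (SD, n = 3) to Smarca4 at 5.003 ± 0.366 FPKM in WT, the levels per length of the 8 genes spanned 1479 times. In WT oocytes the order of mean levels was H1foo, Npm2, Zar1l, Zar1, Hsf1, Ctcf, Trim28 and Smarca4. In Bnc1tr/tr oocytes it was H1foo, Npm2, Zar1, Zar1l, Ctcf, Hsf1, Trim28 and Smarca4. Thus the order differed between the groups at the Zar pair and at Ctcf and Hsf1, and in each of these pairs the library values overlapped within both groups. Neighbours also overlapped for Ctcf and Trim28 in WT, and for Hsf1 and Trim28 in Bnc1tr/tr. The other neighbours in either order did not overlap.

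Fold changes below are Bnc1tr/tr minus WT on the log2(FPKM + 1) scale, on which genes of low level appear to change less than they do. A gene was called changed where its adjusted p was below 0.05 and its log2 fold change beyond 0.5 in either direction. All 8 passed the minimum mean of 1 FPKM. With limma 1 of the 8 was called, which was lower, where 31.8% of all tested genes were called, 24.1% higher and 7.68% lower. The groups did not overlap for 2 of the 8, Zar1l and Ctcf, against 46.8% of all tested genes, and 2 had an unadjusted p under 0.05, against 42.9%. Hence called and non-overlapping genes were no more common among the 8 than in the background. The median log2 fold change of the 8 was 0.02, and 5 of the 8 were below the median of 0.15 over all genes. The 95% intervals of 6 of the 8 included 0.

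**Figure D2:**
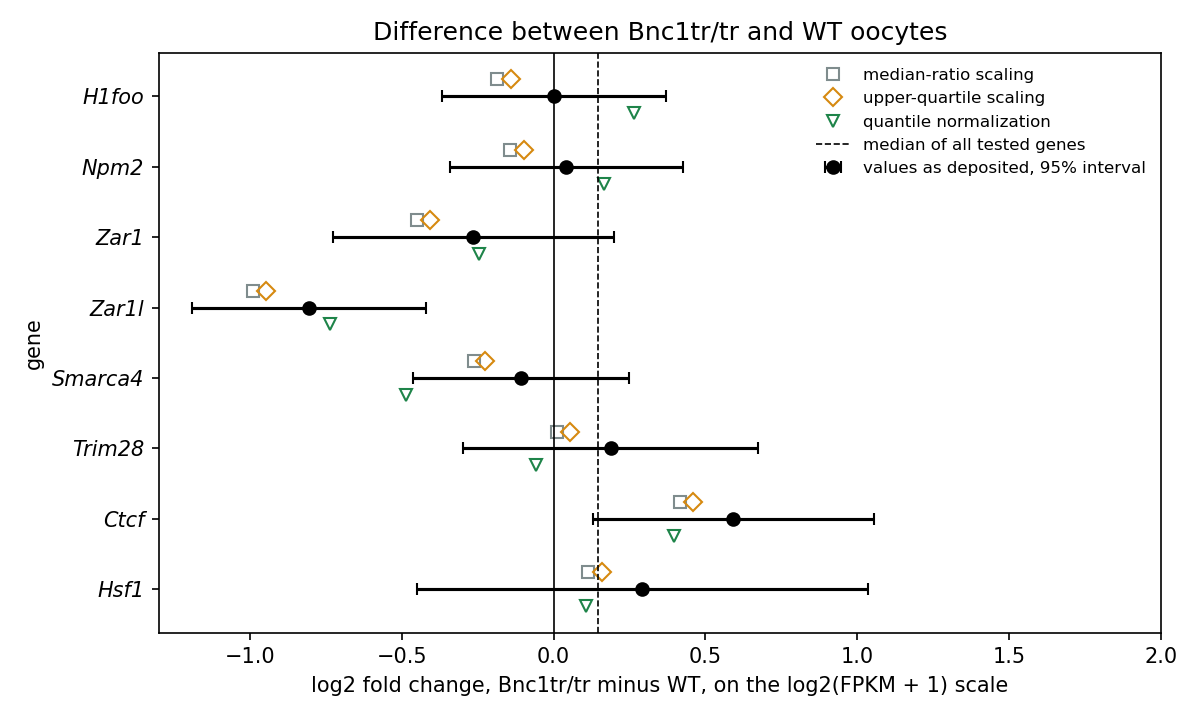
Log2 fold change, Bnc1tr/tr minus WT, on the log2(FPKM + 1) scale for each gene. Black points with bars are values as deposited with their 95% intervals from limma, open symbols the same after 3 other scalings, and the dashed line is the median of all tested genes, 0.15. Zar1l is below 0 and Ctcf above 0 under every scaling drawn, while the sign flips for H1foo and Npm2 with median-ratio and upper-quartile scaling and for Trim28 with quantile normalization.

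The linker histone and the histone chaperone of the oocyte came first. H1foo (Gene ID 171506, chr6:115944931-115950242, plus strand) was 8044, 7218 and 6935 FPKM in Bnc1tr/tr replicates 1 to 3 and 7548, 7981 and 6673 FPKM in the WT replicates. Its values interleaved, and it ranked between 1 and 7 of all genes in every library. It took 0.921% to 1.22% of the summed FPKM of a library. The log2 fold change was 0.0009 (95% interval -0.37 to 0.37, limma, adjusted p = 0.997), with a negative sign after median-ratio (-0.19) or upper-quartile (-0.14) scaling. Quantile normalization moved it furthest, to 0.27 (limma, adjusted p = 0.31). In ratio terms the interval of the deposited values ran from 0.775 to 1.29 times WT on this scale.

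Npm2 (Gene ID 328440, chr14:70647296-70661802, minus strand) was 1068, 1182 and 1233 FPKM in Bnc1tr/tr and 1101, 1290 and 1003 FPKM in WT. The groups overlapped, and WT replicate 3 held the lowest value, as it did for H1foo, Ctcf and Hsf1. The log2 fold change was 0.04 (95% interval -0.34 to 0.43, limma, adjusted p = 0.877), and it turned to -0.14 after median-ratio and to -0.10 after upper-quartile scaling. After quantile normalization it was 0.17 (limma, adjusted p = 0.49). By the annotation exons of Npm2 overlap those of Xpo7 on the same strand, a nuclear transport receptor gene that was at 1.90 FPKM in Bnc1tr/tr and 2.26 FPKM in WT. Of the 31-base words of the coding transcript of Npm2, 0.207% were held by other genes, which were Gm12365 and Prdm2 and not Xpo7.

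Around these 2 genes, 21 other linker histones and histone chaperones were tested, of which 4 were higher and 0 lower (19.0%), with a median log2 fold change of 0.16. The largest rises by the naming rule were Hist1h1e, a linker histone of somatic cells, and Daxx, a chaperone of the histone variant H3.3. Hist1h1e was 13.8, 13.3 and 12.9 FPKM in Bnc1tr/tr and 0.36, 0.95 and 0.08 FPKM in WT (log2 fold change 3.33, limma, adjusted p = 1.31e-05). Other genes, among them Hist1h2be and Hist1h1d, held 34.7% of its 31-base words, so its level is uncertain. Daxx was 20.4 ± 3.44 FPKM in Bnc1tr/tr and 4.21 ± 0.666 FPKM in WT (SD, n = 3, log2 fold change 2.03, limma, adjusted p = 6.88e-05). The other 2, Hist1h1a and Hist1h1d, are also linker histones and are named after their values were seen; Hist1h1d lost its call with quantile normalization, without a filter or without WT replicate 1. Hist1h1d and Hist1h1e had WT means under 1 FPKM and entered the test through the Bnc1tr/tr libraries.

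The 8 linker histones other than H1foo summed to 65.5, 77.2 and 68.2 FPKM in Bnc1tr/tr and to 28.4, 33.1 and 41.6 FPKM in WT. The level of H1foo was therefore 122.8, 93.5 and 101.7 times this sum in Bnc1tr/tr and 266.1, 241.3 and 160.6 times in WT. In the polyadenylated RNA that was copied, H1foo exceeded all the others together by a wide margin in each library. Linker histone RNA without a poly(A) tail would be missed. The largest part of the sum was H1f0, at 31.7, 32.7 and 31.5 FPKM in Bnc1tr/tr and 16.3, 21.1 and 34.7 FPKM in WT. It overlapped between the groups and was not called (limma, adjusted p = 0.196). The ratio of H1foo to the sum was lower in every Bnc1tr/tr library than in every WT library. It is given without a test because it was formed after the values were seen. Npm1, the nucleoplasmin of most cells, was 564.2 FPKM in Bnc1tr/tr and 465.7 FPKM in WT and did not pass the test (limma, adjusted p = 0.215).

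The pair of mRNA-binding genes gave the single call. Zar1l (Gene ID 545824, chr5:150507055-150518194, minus strand), whose upstream sequence is printed above, was 440.4, 464.3 and 405.8 FPKM in Bnc1tr/tr and 653.6, 837.8 and 811.7 FPKM in WT. Every Bnc1tr/tr library lay below every WT library, and the values within Bnc1tr/tr were close together, with a coefficient of variation of 6.74% against 13.0% in WT. The means were 436.9 ± 29.4 and 767.7 ± 99.7 FPKM (SD, n = 3). Its log2 fold change was -0.81 (SE 0.17, 95% interval -1.19 to -0.42, limma, adjusted p = 0.0070), or -0.95 relative to the median of all genes. Without WT replicate 3 it was -0.76 (limma, adjusted p = 0.014). Among the 1191 tested genes with a mean from 100 to 1000 FPKM, 9.32% were called lower, so that a fall at this level was not rare. Between 3999 and 11827 fragments are estimated to stand behind a Zar1l value, so counting error is small beside the spread between libraries, and Zar1l shared 0 of its 31-base words with other genes.

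Zar1 (Gene ID 317755, chr5:72577113-72581361, minus strand) was 552.6, 444.8 and 474.8 FPKM in Bnc1tr/tr and 657.2, 681.5 and 452.2 FPKM in WT. WT replicates 1 and 2 were above all Bnc1tr/tr libraries, while WT replicate 3 was within their range. The log2 fold change was -0.26 (95% interval -0.73 to 0.20, limma, adjusted p = 0.360), so that neither no difference nor a fall close to that of Zar1l is outside the interval. It was negative under every alternative tried, from -0.16 without WT replicate 2 to -0.45 without WT replicate 3 (limma, adjusted p = 0.076). Other annotated genes, Gm15847 and Gm42668, held 30.9% of the 31-base words of Zar1, which makes its level uncertain.

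**Figure D3:**
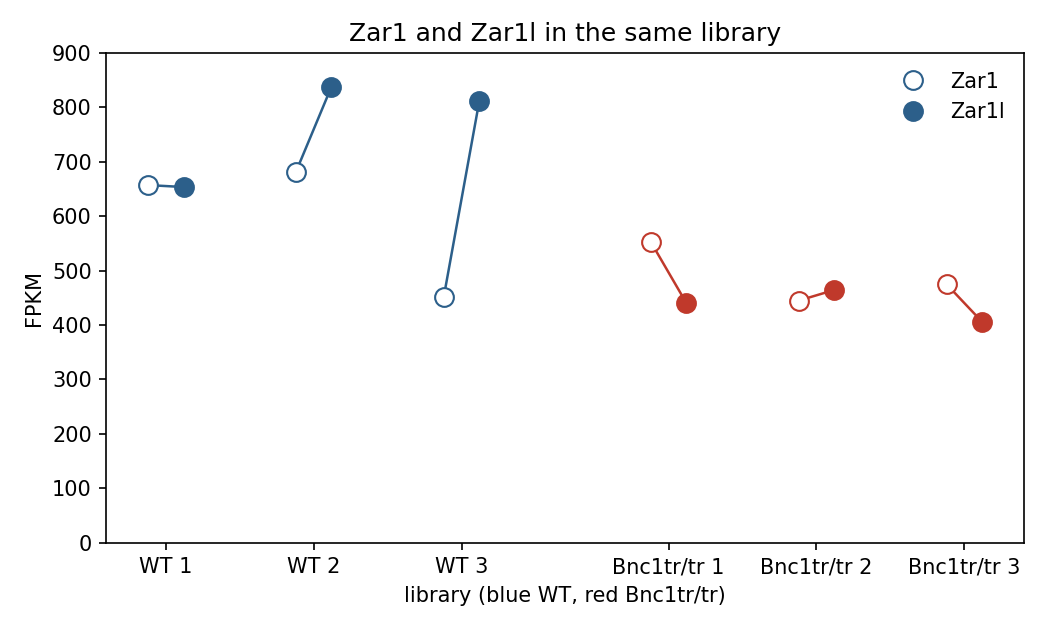
FPKM on a linear scale of Zar1 (open circles) and Zar1l (filled circles), joined within each of the 3 WT (blue) and 3 Bnc1tr/tr (red) libraries. Zar1l falls from 653.6 to 837.8 FPKM in WT to 405.8 to 464.3 FPKM in Bnc1tr/tr, and the gap between the genes is widest in WT replicate 3.

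Because both genes were read in the same library, their ratio does not depend on a factor by which a library is scaled. The FPKM of Zar1 was 1.26, 0.958 and 1.17 times that of Zar1l in Bnc1tr/tr and 1.01, 0.813 and 0.557 times in WT. The ratio was above 1 in Bnc1tr/tr replicates 1 and 3 and in WT replicate 1, and the groups overlapped. The log2 difference between the genes averaged 0.16 ± 0.20 in Bnc1tr/tr and -0.38 ± 0.43 in WT (SD, n = 3), and the groups differed by 0.54 (exact two-sided permutation p = 0.20, where the smallest p of 3 against 3 libraries is 0.10). Without WT replicate 3 the difference was 0.31. Hence an unequal change of the pair was not shown, although Zar1l was called and Zar1 was not.

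The genes annotated on either side of Zar1l did not share one direction. Fry, 9302 bases away, was lower (2.63 ± 0.202 against 4.79 ± 1.51 FPKM, log2 fold change -0.64, limma, adjusted p = 0.044). Brca2, 4103 bases away on the other side and a gene of recombination repair, was 29.4 ± 2.42 FPKM in Bnc1tr/tr and 21.6 ± 5.02 FPKM in WT and did not pass the test (adjusted p = 0.122). Next to Zar1, Gm5868 lies 277 bases away and rose from 35.2 ± 3.65 to 64.7 ± 15.9 FPKM (log2 fold change 0.83, limma, adjusted p = 0.018). These neighbours were taken for their position only.

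Of 17 tested partners of ZAR proteins and other genes of stored mRNA, 2 were higher and 1 was lower (17.6%), with a median of 0.05. Ybx1, a Y-box protein that packs mRNA, rose from 73.4 ± 1.30 to 126.1 ± 18.6 FPKM (log2 fold change 0.76, limma, adjusted p = 0.0090), with 40.3% of its 31-base words also in other genes. Ddx6, an RNA helicase of mRNA storage bodies, rose from 3.82 ± 2.17 to 8.53 ± 0.951 FPKM (log2 fold change 1.10, limma, adjusted p = 0.035), a call that was lost in 6 of 16 alternatives, each removal of a Bnc1tr/tr replicate among them. Igf2bp3, an RNA-binding protein, fell from 14.2 ± 0.357 to 6.40 ± 2.05 FPKM (log2 fold change -1.07, limma, adjusted p = 0.0046). Part of its sequence, 34.9% of the words, was shared with other genes.

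Among the regulators used in most cells, Ctcf (Gene ID 13018, chr8:105636474-105682922, plus strand) came nearest to a call. It was 28.1, 23.7 and 31.5 FPKM in Bnc1tr/tr and 22.4, 17.9 and 14.4 FPKM in WT. The lowest Bnc1tr/tr library was above the highest WT library by a small step, from 22.4 to 23.7 FPKM. The means were 27.8 ± 3.92 and 18.2 ± 3.995 FPKM (SD, n = 3), and the log2 fold change was 0.59 (95% interval 0.13 to 1.05, limma, adjusted p = 0.053), or 0.45 relative to the median of all genes. It was therefore not called. It passed both thresholds with a minimum mean of 5 FPKM (adjusted p = 0.049), with trended and robust variances (adjusted p = 0.046) and without WT replicate 1 (log2 fold change 0.74, adjusted p = 0.031). It was further from a call after upper-quartile scaling (0.46, adjusted p = 0.087), median-ratio scaling (0.41, adjusted p = 0.120) and quantile normalization (0.40, adjusted p = 0.124), all short of the fold threshold. Leaving out 1 of the other libraries gave adjusted p of 0.062 to 0.163. Between 1040 and 1919 fragments are estimated to stand behind a Ctcf value. By the annotation its exons overlap those of Agrp on the opposite strand, which was at 0.907 FPKM in Bnc1tr/tr and 0.203 FPKM in WT. The strand of reads was not given in the sources used here. Of the 31-base words of the coding transcript of Ctcf, 0 were held by other genes on either strand.

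Of 16 genes of cohesin and its loading and release that were tested beside Ctcf, 4 were higher and 0 lower. Called genes were no more common in this list than among all tested genes, of which 31.8% were called and 24.1% were higher. The median log2 fold change of the list was 0.12, and 1 of the 4 higher genes had a WT mean under 1 FPKM. Esco1, which acetylates cohesin, rose from 76.6 ± 7.26 to 134.6 ± 12.8 FPKM (log2 fold change 0.80, limma, adjusted p = 0.0060). Stag2, a subunit of cohesin, rose from 4.76 ± 0.537 to 9.06 ± 1.18 FPKM (log2 fold change 0.80, limma, adjusted p = 0.0073). The call of Stag2 was lost with quantile normalization. Ctcfl, the relative of Ctcf known from testis, was at 0.03 FPKM in Bnc1tr/tr and 0.01 FPKM in WT, below the minimum for testing.

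Smarca4 (Gene ID 20586, chr9:21616106-21704230, plus strand) had the lowest level of the 8. It was 4.63, 4.95 and 4.15 FPKM in Bnc1tr/tr and 4.62, 5.35 and 5.04 FPKM in WT. The groups overlapped, and its coefficients of variation, 8.80% and 7.32%, were among the smaller ones although it had the fewest estimated fragments, 364 to 653 per library. The log2 fold change was -0.11 (95% interval -0.46 to 0.25, limma, adjusted p = 0.647). With quantile normalization it was -0.49 with an adjusted p of 0.040 in limma, short of the fold threshold.

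The other ATPase of the same complexes, Smarca2 or BRM, stood well above Smarca4 and was called lower. Smarca2 was 45.6, 67.7 and 67.3 FPKM in Bnc1tr/tr and 95.1, 144.9 and 180.0 FPKM in WT (log2 fold change -1.18, limma, adjusted p = 0.0092). Per length it was 9.84, 13.7 and 16.2 times the level of Smarca4 in Bnc1tr/tr and 20.6, 27.1 and 35.7 times in WT. Thus Smarca2 remained the more abundant ATPase transcript in every library. Of the 21 SWI/SNF subunits tested beside Smarca4, 6 were higher and 1 was lower (33.3%), and the median was 0.16. The largest rises were those of the scaffold subunits Smarcc1, from 1.44 ± 0.381 to 4.06 ± 1.72 FPKM (log2 fold change 1.01, limma, adjusted p = 0.015), and Smarcc2, from 0.747 ± 0.163 to 1.78 ± 0.474 FPKM (log2 fold change 0.66, limma, adjusted p = 0.022). Both calls were lost with quantile normalization, and that of Smarcc2 also without Bnc1tr/tr replicate 1 or without WT replicate 1. For Smarcc2 and 1 other subunit the WT mean was under 1 FPKM.

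Trim28 (Gene ID 21849, chr7:13024152-13031032, plus strand) was 23.7, 14.7 and 17.5 FPKM in Bnc1tr/tr and 15.8, 13.6 and 18.9 FPKM in WT. Bnc1tr/tr replicate 1 was the highest library, and the others interleaved. The log2 fold change was 0.19 (95% interval -0.30 to 0.67, limma, adjusted p = 0.544), with a sign that turned to -0.06 under quantile normalization. It was 0.0094 without Bnc1tr/tr replicate 1 and 0.33 without Bnc1tr/tr replicate 2. Of 21 tested partners of TRIM28, 4 were higher and 0 lower (19.0%), with a median of 0.10. Gatad2b, a subunit of the NuRD deacetylase complex, rose from 20.2 ± 1.86 to 37.0 ± 4.47 FPKM (log2 fold change 0.84, limma, adjusted p = 0.0054). Cbx5, or heterochromatin protein HP1 alpha, rose from 33.5 ± 0.620 to 59.4 ± 1.94 FPKM (log2 fold change 0.81, limma, adjusted p = 0.0035). Zfp57, which guides TRIM28 to imprinted regions, was 720.4 FPKM in Bnc1tr/tr and 625.1 FPKM in WT and did not pass the test (adjusted p = 0.357).

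Hsf1 (Gene ID 15499, chr15:76477362-76501155, plus strand) had the widest spread of the 8 within WT, which WT replicate 3 carried. It was 32.7, 22.1 and 26.2 FPKM in Bnc1tr/tr and 30.3, 27.6 and 11.9 FPKM in WT. WT replicate 3 was the lowest by far, and the other 5 libraries lay between 22.1 and 32.7 FPKM. The coefficient of variation was 42.8% in WT and 19.7% in Bnc1tr/tr, where that of Trim28 was larger at 24.6%. The log2 fold change was 0.29 (95% interval -0.45 to 1.03, limma, adjusted p = 0.538), and without WT replicate 3 it was -0.11. So the direction of Hsf1 rests on 1 library, and a change by as much as 2.05 times is inside the interval.

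Of 14 tested heat shock factors and known targets of HSF1, 1 was higher and 1 lower (14.3%), and the median was -0.26, below the 0.15 of all genes, with 10 of 14 fold changes negative. Hsf5, a germ cell member of the factor family, rose from 13.9 ± 3.12 to 30.2 ± 4.21 FPKM (log2 fold change 1.07, limma, adjusted p = 0.0040). Hsph1, a chaperone of the HSP110 family, fell from 29.8 ± 8.90 to 14.3 ± 1.82 FPKM (log2 fold change -0.98, limma, adjusted p = 0.014), a call lost without Bnc1tr/tr replicate 2 or WT replicate 2. The most abundant members of this list were Hsp90aa1 at 1575 FPKM in Bnc1tr/tr and 1370 FPKM in WT and Hspa8 at 591.5 and 899.7 FPKM. Neither passed the test, with adjusted p of 0.425 and 0.068 in limma.

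**Figure D4:**
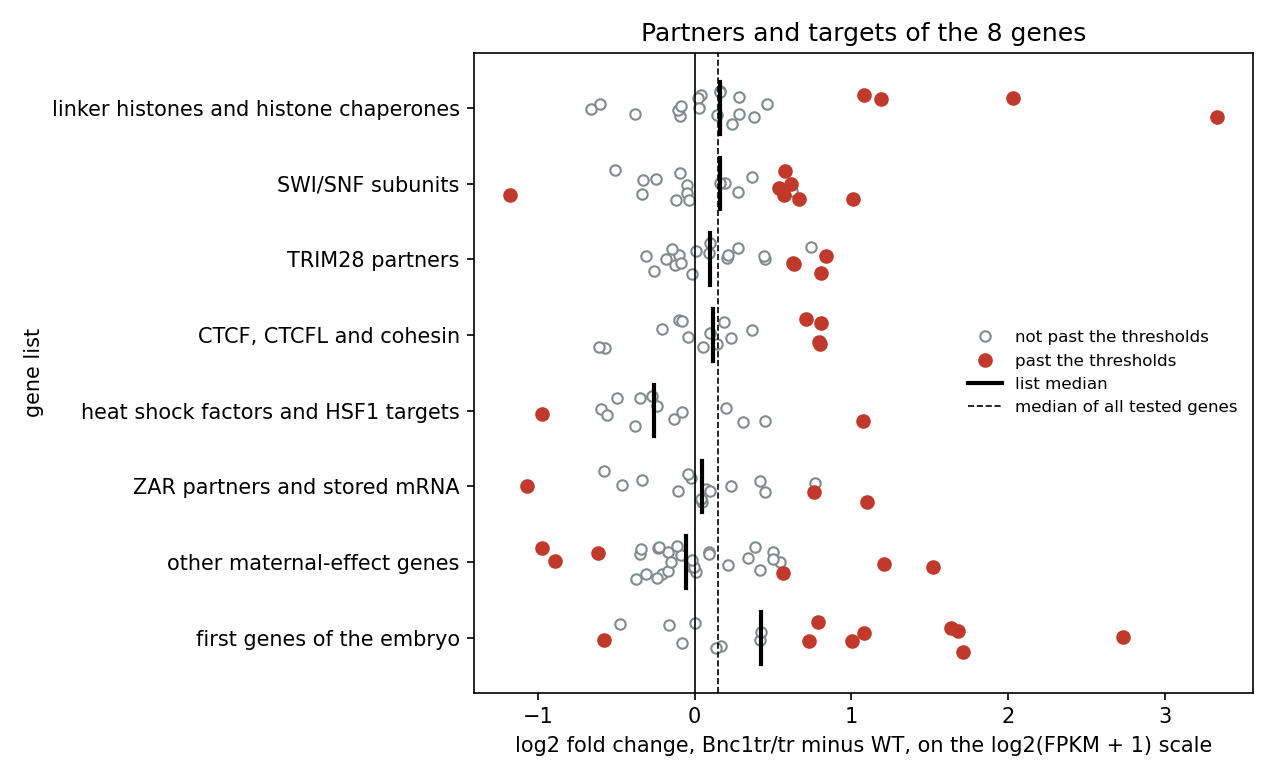
Log2 fold change, Bnc1tr/tr minus WT, on the log2(FPKM + 1) scale for each tested gene of 8 lists, without the 8 genes themselves. Red points passed both thresholds, white points did not, black bars are list medians and the dashed line is the median of all tested genes, 0.15. The medians run from -0.26 for heat shock genes to 0.42 for the first genes of the embryo.

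The 8 genes were also set beside 32 other maternal-effect genes, of which 3 were higher and 3 lower (18.8%), with a median of -0.05. Bnc1, which carries the mutation and defines the groups, is among the 32 and among the 3 lower. The rises by the naming rule were those of Zfp36l2, which brings mRNA to decay, from 0.347 ± 0.0153 to 2.87 ± 0.373 FPKM (log2 fold change 1.52, limma, adjusted p = 1.49e-04), and of Cdh1, or E-cadherin, from 11.7 ± 0.352 to 28.4 ± 1.17 FPKM (log2 fold change 1.21, limma, adjusted p = 4.12e-04). Zfp36l2 entered the test through the Bnc1tr/tr libraries. The falls by the naming rule were those of Nlrp2, of the subcortical maternal complex, from 87.9 ± 24.5 to 43.6 ± 9.90 FPKM (log2 fold change -0.98, limma, adjusted p = 0.018), and of Bnc1. The remaining fall, named after its value was seen, was that of Nlrp5, of the same complex, from 288.2 to 186.1 FPKM (log2 fold change -0.62, limma, adjusted p = 0.026). The call of Nlrp2 was lost in 5 of 16 alternatives, 4 of them removals of 1 library. As among the 8 genes, called genes were no more common here than among all tested genes.

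Of 17 tested genes that the embryo reads first, 8 were higher and 1 was lower (52.9%, against 31.8% of all tested genes), with a median of 0.42. Of the 8, 3 had WT means under 1 FPKM and entered the test through the Bnc1tr/tr libraries, and the 1 that fell, Zfp352, entered it through WT. Of the other 13, 5 were higher and 0 lower, where 19.0% of all genes with both group means at 1 FPKM or more were higher. Usp17le, a deubiquitinase of a gene cluster, was 14.4, 3.78 and 4.22 FPKM in Bnc1tr/tr and 0.07, 0.23 and 0 FPKM in WT (log2 fold change 2.73, limma, adjusted p = 9.92e-04). Near-identical copies held 49.1% of its words, so that its level is uncertain. Eif1a, a translation initiation factor gene, was 8.43, 4.10 and 4.26 FPKM in Bnc1tr/tr and 1.81, 1.28 and 0.12 FPKM in WT (log2 fold change 1.71, limma, adjusted p = 0.0071). Zfp352 was 0.603 ± 0.104 FPKM in Bnc1tr/tr and 1.41 ± 0.311 FPKM in WT (log2 fold change -0.58, limma, adjusted p = 0.029), lost without any 1 of the Bnc1tr/tr replicates. The levels of these 3 genes were low beside those of the stored transcripts H1foo, Npm2 and Zar1l. Other genes of the list, named after their values were seen, stood higher. Klf17 was called higher, at 191.0 FPKM in Bnc1tr/tr and 89.65 FPKM in WT (log2 fold change 1.08, limma, adjusted p = 0.0020). Eif1ax, at 507.4 and 700.7 FPKM, and Tcstv1, at 267.8 and 270.6 FPKM, were not called (limma, adjusted p = 0.071 and 0.998).

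The genes most alike in pattern to each of the 8 were sought by the root mean square difference of log2(FPKM + 1), each gene centred on its own mean, over the 6 libraries. Near to Zar1l were Foxj3 (0.05) and Scg3 (0.07), with log2 fold changes of -0.79 and -0.74. Nearest to Ctcf were Sec23a, Hsdl2 and the oocyte growth factor gene Bmp15, at 0.06 each, with log2 fold changes of 0.61, 0.69 and 0.56. H1foo was nearest to Dcps, Rfc1 and Ppid, and Npm2 to Zwint, Cep192 and Rhbdd1. Zar1 was nearest to Tmem134, Ncor1 and Dnaja3, and Smarca4 to Krtcap2, Rnf7 and Iffo1. Trim28 was nearest to Slc45a3, Trmt6 and Actr10, and Hsf1 to Rest, P4hb and Ppp1r8. These genes were chosen for their pattern, so their fold changes follow from it and are given without a test. Likeness over 6 libraries that share depth and scaling is a description only.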

How the data were processed

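The authors deposited 1 table of FPKM per library, rounded to 2 decimals, for 3 Bnc1tr/tr and 3 WT oocyte libraries, with no counts. The submitters' processing notes name HISAT2 2.0.4, Bowtie2 2.2.5, RSEM 1.2.12 and GRCm38.p6 without their roles. No pair of libraries held identical values. Depth was estimated from the spacing of small FPKM values at 12.7 to 21.0 M (mega) fragments, with disagreeing estimates for WT replicate 1 (29.5 and 14.8 M from separate gene subsets). Smart-seq2 reads carry no molecular identifiers, so fragment numbers cover counting error only.

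Groups followed the genotype labels. The 10560 genes whose FPKM averaged 1 or more in the 6 libraries were compared on log2(FPKM + 1) with limma 3.58.1 in R 4.3.3 without a block, with Benjamini-Hochberg adjustment over all of them. The script was tested on simulated data. The labels do not say that libraries came from separate animals, so p-values measure only the spread between these libraries. The members and lists were chosen with earlier results of these data known. All 8 genes are named. Of each list the 2 largest rises and 2 largest falls among called genes are named, and of each pattern search the 3 nearest genes, of which 1 is not reported here, with other names chosen after their values were seen. Alternatives were another pseudocount, other filters, scalings, variances and fold thresholds, a block, and leaving out each library. Scaling to an equal FPKM total, with or without the 20 most abundant genes, was chosen after seeing the data. Sequences and coordinates of the 8 genes came from RefSeq (GRCm38.p6), shared 31-base words and overlaps from GENCODE M21. Figures were drawn with matplotlib 3.10.9.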

Additional observations from a re-analysis of the deposited data

How the results depend on the processing

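Of 143 alternative values of the 8 genes, 128 kept their direction and their side of the thresholds. Other filters, fold thresholds, variances and the block leave the log2 fold change of a gene as it was. The direction could not turn under these, so the count overstates how stable it is. Zar1l stayed called under every alternative but a log2 fold change over 1, with log2 fold changes from -0.99 to -0.74 and adjusted p of 0.0028 to 0.039 in limma. That threshold left 0 of the 8 called changed and 0 lower, 1677 of all tested genes and 17 of the list genes, against 3358 and 39. A minimum mean of 5 FPKM, which tests fewer genes and leaves out Smarca4, gave 2 of the other 7 called, 1 of them higher (Ctcf), 2046 of all genes and 24 list genes. Trended and robust variances also gave 2 called and 1 higher. Leaving out 1 library each gave 1 to 2 of the 8 called changed, 0 to 1 higher, 2390 to 3597 of all genes and 24 to 45 list genes, lowest without WT replicate 2 (24) and Bnc1tr/tr replicate 1 (25). The cause was not tested.

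The sign turned for H1foo to -0.14 (upper-quartile scaling), -0.19 (median-ratio scaling) and -0.0113 (scaling without the 20 most abundant genes), with -0.0718 to 0.0573 when 1 library was left out. For Npm2 it turned to -0.10 (upper-quartile) and -0.14 (median-ratio), with -0.0404 to 0.14 when 1 library was left out, and -0.0023 without Bnc1tr/tr replicate 3. For Trim28 it turned to -0.0589 (quantile normalization), and for Hsf1 values without 1 library ran from -0.11 to 0.53. Quantile normalization kept the sign of H1foo and Npm2, at 0.27 and 0.17. The Zar1 to Zar1l difference ran from 0.31 to 0.73.

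Same-numbered libraries correlated in their deviations from the group means by 0.278, -0.0344 and 0.124. With 3 libraries per group these values cannot decide whether the numbers pair the samples. A fit with this number as a replicate block called 3733 genes, 1 of the 8 among them (Zar1l, limma, adjusted p = 0.0088), and no call of the 8 genes changed. The Zar1 to Zar1l difference was above 0 in 3 of 3 such pairs (exact paired permutation p = 0.25, the smallest 3 pairs allow).

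Groups of 3 libraries limit what can be seen: intervals of the 8 genes were 0.71 to 1.49 wide on the log2 scale.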
